A study of Rattus norvegicus with 12 samples.

Results

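The vitamin D receptor axis was followed through 8 genes of 20190 listed in either table: the receptor Vdr, its partners Rxra and Rxrb, the hydroxylases Cyp24a1 and Cyp27b1, and the target genes Bglap, Trpv6 and S100g. They were chosen by gene symbol for their place in the pathway, with earlier results of these data known. All 8 were listed in both tables. RNA was sequenced from UMR-106 cells, a rat osteosarcoma line with osteoblast features, in 4 groups of 3 libraries: NFAT5KO +NaCl, NFAT5KO -NaCl, control +NaCl and control -NaCl. The medium held 20 mM more NaCl (+NaCl) or 20 mM less (-NaCl) for 24 h, so that the media differed by 40 mM. No library came from medium with unchanged NaCl, so effects of the added and of the reduced NaCl cannot be told apart. Genes said to rise or fall did so with +NaCl relative to -NaCl. Every group was given 1 nM calcitriol, and none was without it, so the effect of calcitriol itself was not measured. NFAT5KO cells carry a Crispr-Cas9 knockout of NFAT5, the transcription factor that responds to tonicity, and come from 1 clone, so that the knockout and other features of this clone cannot be told apart. Labels call the line an osteoblast of bone and the control genotype WT.

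Calcitriol, the hormonal form of vitamin D, binds the vitamin D receptor in the cytosol and nucleus, which then pairs with a retinoid X receptor and binds DNA at paired half-sites spaced by a few bases. Cyp27b1 makes calcitriol from its precursor, and Cyp24a1 inactivates it and is itself among the genes most readily raised by the hormone. In osteoblasts the receptor is known for acting on genes of the bone matrix, and in gut and kidney on genes of calcium transport.

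The window from 250 bases before to 50 bases after the transcription start was read from RefSeq (GRCr8) for 6 of the 8 genes, all but Cyp24a1 and S100g. Both strands were searched for the half-sites AGTTCA or GGTTCA, for AGGTCA or GGGTCA and for AGGTGA, for 2 of these 5 in the same direction with a spacer of 3 (a DR3 element), and for TGGAAA, the core of the tonicity-responsive element. The windows of Vdr, Cyp27b1 and Bglap are shown, the first because Vdr was the only gene of the axis whose response to salt passed the test, and the others because they held more than 1 half-site. Capitals mark half-sites, and one that lies on the opposite strand is read as its reverse complement (TGAACC for GGTTCA).
Vdr, chr7:130916708-130917007, minus strand: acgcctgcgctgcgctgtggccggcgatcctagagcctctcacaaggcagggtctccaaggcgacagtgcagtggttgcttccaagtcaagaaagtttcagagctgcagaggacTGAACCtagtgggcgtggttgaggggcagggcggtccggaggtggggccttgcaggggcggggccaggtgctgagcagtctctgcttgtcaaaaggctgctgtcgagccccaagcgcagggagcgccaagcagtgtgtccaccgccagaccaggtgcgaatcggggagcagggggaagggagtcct
Cyp27b1, chr7:64756376-64756675, plus strand: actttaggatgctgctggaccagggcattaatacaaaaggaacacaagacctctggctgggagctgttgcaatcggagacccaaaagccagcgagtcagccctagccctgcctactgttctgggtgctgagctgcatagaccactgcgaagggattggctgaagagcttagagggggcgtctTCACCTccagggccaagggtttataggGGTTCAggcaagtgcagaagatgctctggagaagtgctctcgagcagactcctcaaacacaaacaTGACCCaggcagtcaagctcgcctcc
Bglap, chr2:176137269-176137568, minus strand: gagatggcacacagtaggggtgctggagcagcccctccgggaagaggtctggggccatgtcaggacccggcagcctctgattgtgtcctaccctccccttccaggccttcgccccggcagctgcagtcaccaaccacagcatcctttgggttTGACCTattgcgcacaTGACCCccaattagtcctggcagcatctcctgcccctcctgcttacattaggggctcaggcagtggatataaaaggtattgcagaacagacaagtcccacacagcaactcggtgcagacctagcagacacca

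The Vdr window held 1 half-site, GGTTCA on the opposite strand at -136 to -131, a sequence found in 11.7% of 33469 windows of this length. Cyp27b1 held 3, at -68 to -63, -41 to -36 and 25 to 30 relative to the start, and Bglap held 2, at -98 to -93 and -82 to -77. Rxrb and Trpv6 held 1 each and Rxra none, where 53.1% of all windows held at least 1. No window of the 6 genes held a DR3 element of these half-sites, against 0.185% of all windows. The core TGGAAA was found in the Rxrb window and in none of the other 5, against 22.7% of all windows. These matches are a description of short windows and were not tied to binding.

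Depth was 14267946 to 22798804 recovered reads per library. A recovered read is a deposited value divided by the smallest step of its library, and levels are given as RPM, the recovered reads of a gene scaled to the recovered reads of its library. Each of the 8 osteoblast markers searched was above 3 reads in every group, and their summed level was 3723 to 6612 RPM, against at most 2.26 for markers of leukocytes, endothelium or enterocytes, 11.9 to 20.5 for muscle and 6.28 to 17.7 for renal tubule. Osteoblast markers summed to 4969 to 5185 in NFAT5KO +NaCl, 3723 to 4401 in NFAT5KO -NaCl, 6397 to 6612 in control +NaCl and 3848 to 3894 in control -NaCl. In NFAT5KO cells the 4 osteocyte markers summed to 32.1 to 39.2 with +NaCl and 49.2 to 56.4 with -NaCl. In control cells they summed to 92.8 to 103.7 and 126 to 129. Their sum was thus lower with +NaCl in both genotypes and lower in NFAT5KO than in control cells. These markers did not move together. Sost fell by 0.89 on the log2 scale in NFAT5KO and 0.54 in control cells (limma adjusted p = 4.94e-04 and 2.74e-05). Dmp1 rose by 0.46 in control cells (adjusted p = 0.00364) and was at 0.34 in NFAT5KO cells (adjusted p = 0.113). The 6 chondrocyte markers summed to 24.7 to 25.8 and 22.2 to 28.5 in NFAT5KO cells, where the media overlapped, and to 37.1 to 40.8 and 28.4 to 32.7 in control cells, where they did not. The summed level of the 5 adipocyte markers was lower with +NaCl, at 34.3 to 42.8 and 54.4 to 73.2 in NFAT5KO cells with +NaCl and -NaCl and at 24.6 to 26.6 and 39.2 to 40.4 in control cells. Of these 5, only Lpl passed the test, and it fell by 0.72 in NFAT5KO and 0.64 in control cells, while Fabp4 was at 0.06 in NFAT5KO and 1.28 in control cells (adjusted p = 0.970 and 0.0625). The part of these markers, of which Spp1, Runx2, Col1a1 and Ibsp are also among the list genes, in the results was not tested. Nfat5 transcripts were at 1403, 1590 and 1626 normalized counts in NFAT5KO +NaCl and 1036, 792 and 843 in NFAT5KO -NaCl, against 4292, 4217 and 4575 in control +NaCl and 2925, 2689 and 2799 in control -NaCl. The study reports a complete knockout by immunoblot and by qRT-PCR, in which Nfat5 mRNA was not detected. The counts here are of the whole gene and do not resolve the targeted exons. One library, NFAT5KO -NaCl replicate 1, stood apart from its group on the first principal component (5.63, against 22.9 and 19.8 in the other two), and each result from NFAT5KO cells was also computed without it.

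Vdr was the one gene of the 8 whose change with salt passed the test, and it did so in control cells. It rose by 0.52 on the log2 scale in control +NaCl over control -NaCl, a 1.43-fold change, while its level in NFAT5KO cells differed between the media by -0.02. In NFAT5KO cells Vdr stood below control cells in both media. Vdr encodes the receptor through which calcitriol acts on genes.

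In NFAT5KO +NaCl libraries Vdr had 1424, 1287 and 1431 normalized counts (1381 ± 81.4, SD, n = 3). The NFAT5KO -NaCl libraries had 1409, 1287 and 1520 (1405 ± 117, SD, n = 3), so the 2 groups overlapped. In control +NaCl it had 2922, 2596 and 2789 (2769 ± 164, SD, n = 3), against 1944, 1855 and 2004 in control -NaCl (1934 ± 74.8, SD, n = 3). Every control +NaCl library lay above every control -NaCl library. The share of all genes whose libraries separated by medium was not computed, here or for the genes below. In control cells 13.3% of 17108 genes passed the test as higher with +NaCl.

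The log2 fold change of Vdr was -0.02 in NFAT5KO cells (SE 0.07, 95% interval -0.18 to 0.13, limma adjusted p = 0.865). In control cells it was 0.52 (SE 0.05, interval 0.40 to 0.63, adjusted p = 4.42e-05). The difference between these responses, NFAT5KO minus control, was -0.54 (SE 0.09, interval -0.74 to -0.34, adjusted p = 0.00563 over 16849 genes). Without NFAT5KO -NaCl replicate 1 the difference was -0.54 with an adjusted p of 0.0142. It missed the threshold when limma was run without a mean-variance trend, at an adjusted p of 0.0748.

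**Figure D1:**
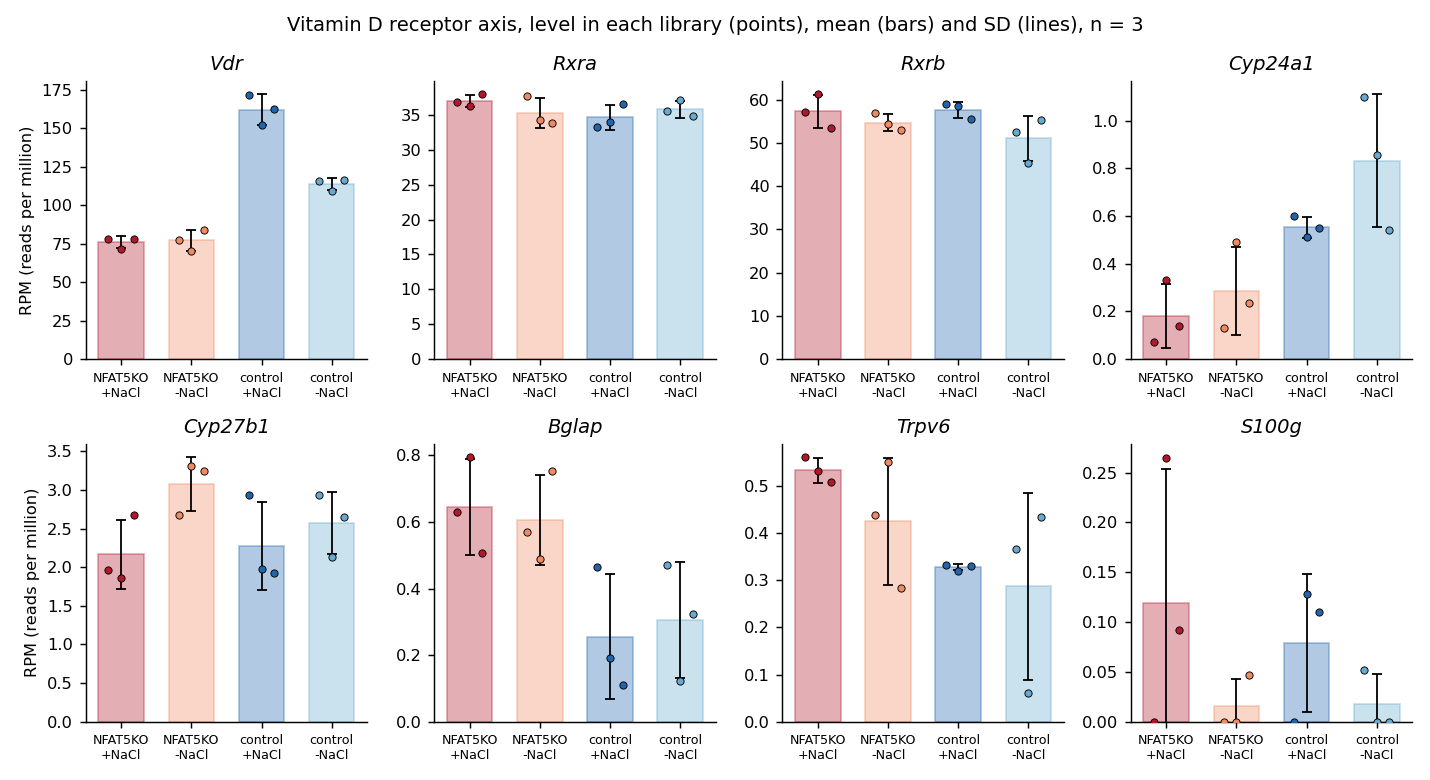
Level of the 8 genes in RPM (y axis, each gene on its own linear scale from 0) in the 4 groups, with points for libraries, bars for means and lines for the SD of 3 libraries. Vdr is at 75.9 and 77.2 in NFAT5KO cells with +NaCl and -NaCl, against 162 and 114 in control cells, while Cyp24a1, Bglap, Trpv6 and S100g rest on few reads.

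Because the deposited tables were normalized separately, NFAT5KO and control cells were compared only as a description. Vdr averaged 75.9 ± 3.77 RPM in NFAT5KO +NaCl and 162 ± 9.92 in control +NaCl (SD, n = 3 each), a ratio of 0.468. With -NaCl the means were 77.2 ± 6.75 in NFAT5KO cells and 114 ± 3.85 in control cells, a ratio of 0.679. The groups did not overlap in either medium, as for 44.6% of all genes with +NaCl and 39.8% with -NaCl, and every NFAT5KO library was below every control library for 25.6% and 23.7% of genes. In bulk RNA, fewer cells that express a gene and less of its RNA per cell cannot be told apart.

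Of the 8 genes, 0 passed in NFAT5KO cells, where 14.7% of 16657 genes did (7.29% higher and 7.37% lower with +NaCl). At an unadjusted p below 0.05, 1 of them passed by limma (Cyp27b1), against 29.5% of genes, and edgeR and DESeq2 called 0 with or without adjustment. In control cells 1 of 7 genes passed, where 26.0% of 17108 genes did (13.3% higher and 12.7% lower), and 2 passed at an unadjusted p (Vdr and Rxrb), against 36.9% of genes. EdgeR and DESeq2 called 1 each after adjustment. The eighth, S100g, was below the minimum mean of 1 normalized count there. Of the 8 tested for the difference between the responses, 1 passed, against 1.80% of 16849 genes (0.362% with a higher and 1.44% with a lower value in NFAT5KO cells), and 1 passed at an unadjusted p, against 13.0% of genes.

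**Figure D2:**
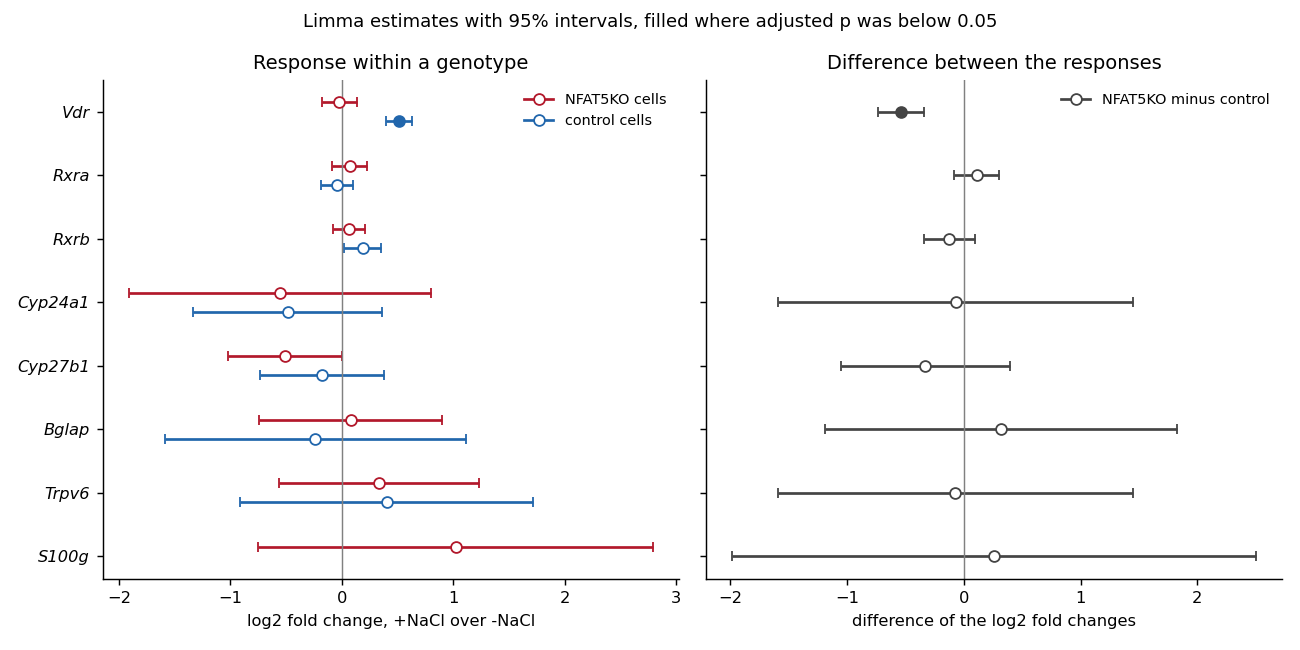
Log2 fold changes of +NaCl over -NaCl in NFAT5KO cells (upper points) and control cells (lower points) on the left, and the difference of the responses, NFAT5KO minus control, on the right, with 95% intervals from limma. Filled points passed an adjusted p of 0.05, which only Vdr did, at 0.52 in control cells and -0.54 for the difference, and the intervals of Cyp24a1, Bglap, Trpv6 and S100g are wide.

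The retinoid X receptors, the partners with which the receptor binds DNA, differed little between groups. Rxra had 671, 653 and 697 normalized counts in NFAT5KO +NaCl and 685, 627 and 614 in NFAT5KO -NaCl, and 566, 582 and 628 in control +NaCl against 598, 629 and 598 in control -NaCl. The groups overlapped within each genotype. Its log2 fold change was 0.07 in NFAT5KO cells (interval -0.08 to 0.22, adjusted p = 0.562) and -0.04 in control cells (interval -0.18 to 0.10, adjusted p = 0.706).

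Rxrb had 1038, 1101 and 983 normalized counts in NFAT5KO +NaCl and 1034, 992 and 959 in NFAT5KO -NaCl, and 1002, 1001 and 951 in control +NaCl against 885, 767 and 952 in control -NaCl. The NFAT5KO groups overlapped, and control +NaCl overlapped control -NaCl through replicate 3 of -NaCl. The log2 fold change was 0.06 in NFAT5KO cells (interval -0.08 to 0.20, adjusted p = 0.563) and 0.19 in control cells (interval 0.02 to 0.35, adjusted p = 0.0956). Leaving out control -NaCl replicate 3 gave 0.26 with an adjusted p of 0.0206, which is past the threshold. In RPM, the ratio of NFAT5KO to control cells was 1.07 with +NaCl and 0.985 with -NaCl for Rxra, and 0.994 and 1.07 for Rxrb. The groups overlapped in RPM in both media. On the deposited normalized counts the ratio was 1.14 for Rxra with +NaCl and 1.15 for Rxrb with -NaCl, and in both cases the groups did not overlap. The 2 tables were normalized separately, and the share of all genes that did not overlap on these counts was not computed.

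Per transcript length, the receptor and its partners stood well above the rest of the axis. Vdr was at 17.0 and 17.3 RPM per kb in NFAT5KO cells with +NaCl and -NaCl, and at 36.3 and 25.5 in control cells. Rxra was between 17.5 and 18.7 in the 4 groups and Rxrb between 12.1 and 13.7. In NFAT5KO cells the levels per length of Vdr and Rxra were within 1 SD of each other with -NaCl (17.3 ± 1.51 and 17.8 ± 1.05), whereas in control cells Vdr stood above Rxra in both media. Cyp27b1 and Bglap came next, at 0.892 to 1.27 and 0.525 to 1.32. Trpv6 lay between 0.0984 and 0.183, S100g between 0.0388 and 0.294 and Cyp24a1 between 0.0560 and 0.259. Cyp24a1 stood above Trpv6 in control cells and below it in NFAT5KO cells, where with -NaCl they were within 1 SD of each other (0.0890 ± 0.0574 and 0.146 ± 0.0463).

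**Figure D3:**
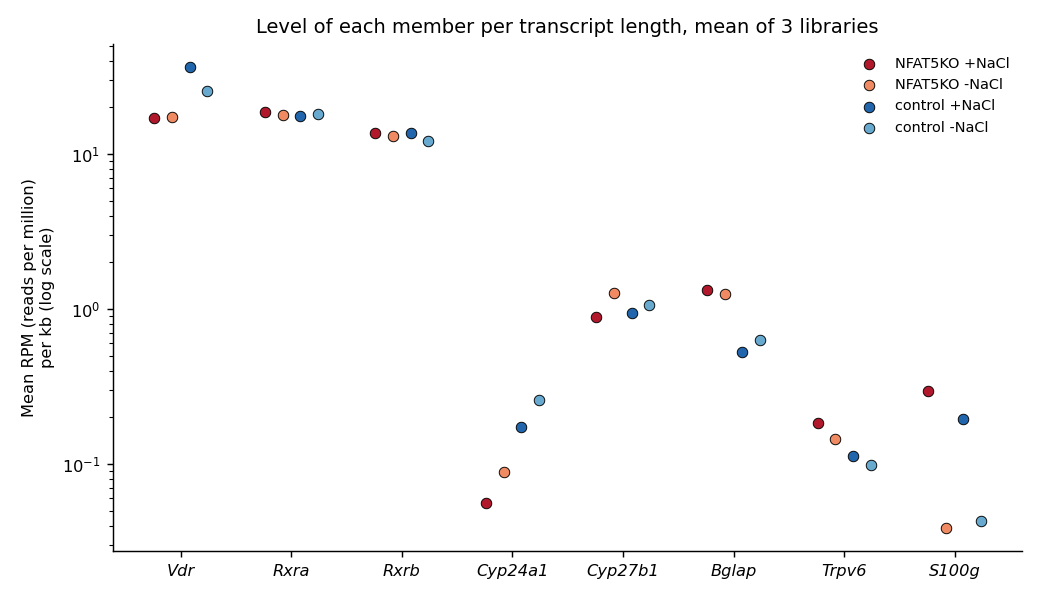
Mean level per transcript length of each gene in the 4 groups, in RPM per kb on a log axis, each point the mean of 3 libraries. Vdr, Rxra and Rxrb lie between 12.1 and 36.3, and the other 5 genes at or below 1.32.

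Cyp24a1, which encodes the 24-hydroxylase that breaks calcitriol down, gave only a few reads a library. All media held calcitriol, so whether the hormone raised it was not measured. It had 1, 5 and 3 reads in NFAT5KO +NaCl, 3, 8 and 5 in NFAT5KO -NaCl, 9, 8 and 10 in control +NaCl and 21, 14 and 10 in control -NaCl. Only 11.4 to 22.7% of listed genes were lower per length. In RPM the NFAT5KO groups lay below the control groups without overlap in each medium, as for 25.6% of all genes with +NaCl and 23.7% with -NaCl.

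Summed over libraries at equal depth, Cyp24a1 had 0.321 times as many reads in NFAT5KO as in control cells (25 against 72 reads, exact 95% interval 0.195 to 0.512), an interval that covers counting error only. The ratio was 0.320 with +NaCl (0.132 to 0.700) and 0.318 with -NaCl (0.168 to 0.573). The ratio of the mean RPM was 0.325 with +NaCl and 0.344 with -NaCl, and it was 0.189 without NFAT5KO +NaCl replicate 2 and 0.221 without NFAT5KO -NaCl replicate 2 (0.189 to 0.425 and 0.221 to 0.436 over all libraries left out in turn). Its log2 fold change with salt was -0.56 in NFAT5KO cells (SE 0.62, interval -1.91 to 0.80, adjusted p = 0.605) and -0.49 in control cells (SE 0.38, interval -1.33 to 0.36, adjusted p = 0.405). Neither passed.

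Cyp27b1, the 1-alpha-hydroxylase that makes calcitriol, had more reads. There were 35.7, 33.4 and 49.2 normalized counts in NFAT5KO +NaCl and 48.7, 60.5 and 58.9 in NFAT5KO -NaCl, with an overlap of replicate 3 and replicate 1 of these groups. Control +NaCl had 49.8, 33.9 and 32.9 and control -NaCl 49.3, 36.2 and 45.6, which overlapped. The log2 fold change was -0.51 in NFAT5KO cells (SE 0.23, unadjusted p = 0.0496, adjusted p = 0.168) and -0.18 in control cells (SE 0.25, adjusted p = 0.661). It passed in neither, and the difference between the responses was -0.33 (interval -1.05 to 0.39, adjusted p = 0.757).

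Among the target genes, Bglap encodes osteocalcin, the bone matrix protein whose human and rat genes are classical targets of the receptor. It had 9, 12 and 11 reads in NFAT5KO +NaCl, 13, 8 and 16 in NFAT5KO -NaCl, 7, 3 and 2 in control +NaCl and 9, 2 and 6 in control -NaCl. The NFAT5KO groups lay above the control groups in RPM in both media. Groups did not overlap, in either direction, for 44.6% of all genes with +NaCl and 39.8% with -NaCl. Summed over libraries, NFAT5KO cells had 2.20 times the Bglap reads of control cells at equal depth (69 against 29 reads, interval 1.41 to 3.52). This interval, like those of the read ratios below, covers counting error only and not the spread between libraries. The ratio of the mean RPM with +NaCl was 2.52, with an SD of 1.92 from the spread of the libraries. Leaving out 1 library gave 1.96 to 4.28, the highest without control +NaCl replicate 1. With -NaCl the ratio was 1.98 (SD 1.21), and 1.52 to 2.71 on leaving out 1 library. With salt the log2 fold change was 0.08 in NFAT5KO cells (interval -0.74 to 0.90) and -0.24 in control cells (interval -1.59 to 1.11), and neither passed.

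Trpv6, an apical calcium channel of gut and kidney, had 8, 8 and 11 reads in NFAT5KO +NaCl, 10, 9 and 6 in NFAT5KO -NaCl, 5, 5 and 6 in control +NaCl and 7, 1 and 8 in control -NaCl. Its reads at equal depth were 1.50 times those of control cells in NFAT5KO cells (interval 0.948 to 2.41). In RPM the genotypes overlapped with -NaCl and did not with +NaCl, as for 44.6% of all genes. The log2 fold changes of 0.33 in NFAT5KO cells and 0.41 in control cells had intervals from -0.56 to 1.23 and from -0.91 to 1.72.

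S100g, which encodes the calcium-binding protein calbindin-D9k, had 0, 4 and 2 reads in NFAT5KO +NaCl, 0, 0 and 1 in NFAT5KO -NaCl, 0, 2 and 2 in control +NaCl and 1, 0 and 0 in control -NaCl. The ratio of +NaCl to -NaCl reads at equal depth was 7.10 in NFAT5KO cells (interval 0.861 to 326) and 4.41 in control cells (interval 0.437 to 217). Its gene model lies within Ctps2 on the opposite strand over 2524 bases, and the strandedness of the counting is not given in the sources used here, so these few reads cannot be told apart from those of Ctps2. Among the 20190 genes listed in either table, no other gene model overlapped the remaining 7 genes.

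By the lower of 2 Pearson correlations, over the 6 libraries of each genotype and among 11160 genes, the genes whose normalized counts were most like those of Vdr were Folr1 (a folate receptor, r = 0.926 in NFAT5KO and 0.941 in control cells), Lrp5 (a Wnt co-receptor, 0.912 and 0.950) and Scfd2 (0.901 and 0.924). The 6 points share the 2 media and the library depths. Folr1 had a log2 fold change of -0.08 in NFAT5KO and 0.55 in control cells, and Scfd2 of -0.01 and 0.51. For these 2 genes the difference between the responses did not pass (limma adjusted p = 0.260 and 0.0698). For Cyp24a1, at 1 to 21 reads a library, the 3 genes were RGD1565641, Ftsj3 and Pfdn4, with r between 0.894 and 0.981.

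The 5 lists of genes around the axis were also chosen with earlier results of these data known. They were read beside the share of all genes called, 14.7% in NFAT5KO cells, 26.0% in control cells and 1.80% for the difference. The median over all genes tested was within 0.01 of 0 in each comparison. The limma calls in NFAT5KO cells depended on the mean-variance trend, without which limma called 14 of 16657 genes and none of these lists. EdgeR and DESeq2, on recovered reads, called 2340 and 2544 of 16657 genes in NFAT5KO cells, and both called genes of each list. Without the trend limma called 2763 of 17108 genes in control cells. These held 1 coregulator, 2 other nuclear receptors, 4 genes known to be raised by calcitriol, 4 known to be lowered by it and 0 carriers or hydroxylases. Tnfsf11 and Cyp3a9 each had 2 gene models and were not counted.

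Of 15 receptor partners and coregulators, 3 rose and 1 fell in NFAT5KO cells, of 15 tested (median 0.14), and 5 rose and 2 fell in control cells, of 14 tested (median 0.06). The corepressor Ncor1 rose in both, by 0.27 in NFAT5KO and 0.24 in control cells (adjusted p = 0.00986 and 0.00213). In NFAT5KO cells the coactivator Ncoa1 rose by 0.31, the Mediator subunit Med1 rose by 0.23 and Pdia3, a disulfide isomerase also proposed as a membrane receptor of calcitriol, fell by 0.28. In control cells Ncoa3 rose by 0.20 and Med1 by 0.18, while Pdia3 fell by 0.24. The difference between the genotypes passed for 0 of the 14 tested in limma, edgeR and DESeq2, and for 2 at an unadjusted p below 0.05 in each.

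Most calls of these named genes failed on omission of a single library, given here by medium and replicate number. In NFAT5KO cells Ncoa1 failed on omission of -NaCl 2 (adjusted p of 0.0597), Pdia3 on that of -NaCl 2 or -NaCl 3 (up to 0.0708) and Med1 on that of +NaCl 1, +NaCl 3, -NaCl 2 or -NaCl 3 (up to 0.122). In control cells Med1 failed on omission of +NaCl 2, +NaCl 3, -NaCl 1 or -NaCl 2 (up to 0.0977), Ncoa3 on that of +NaCl 3 or -NaCl 1 (up to 0.0847) and Pdia3 on that of any +NaCl library (up to 0.121). Ncor1 was kept in both genotypes.

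Of 13 tested among 15 other nuclear receptors that pair with RXR, 2 rose and 1 fell in NFAT5KO cells (median 0.08) and 4 rose in control cells (median 0.28). Thra, the thyroid hormone receptor alpha, had 1522, 1333 and 1629 normalized counts in NFAT5KO +NaCl and 1479, 1396 and 1355 in NFAT5KO -NaCl. In control +NaCl it had 1536, 1578 and 1466, against 994, 1054 and 1020 in control -NaCl. Only the control groups were apart, with log2 fold changes of 0.08 in NFAT5KO (adjusted p = 0.529) and 0.58 in control cells (adjusted p = 1.53e-05). The difference of -0.50 passed (SE 0.09, adjusted p = 0.0102) and was kept without each of the 12 libraries in turn.

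Nr1h2, a liver X receptor, rose by 0.25 in NFAT5KO and 0.34 in control cells, and Nr4a1, an orphan receptor of the immediate early class, by 0.60 and 0.51. Ppard, a fatty acid sensor, rose by 0.28 in control cells, and Thrb, the thyroid hormone receptor beta, fell by 0.48 in NFAT5KO cells. In NFAT5KO cells the calls of Nr4a1 and Thrb were lost without any one library other than -NaCl replicate 1 (adjusted p up to 0.169 and 0.192), and that of Nr1h2 on omission of +NaCl 1, +NaCl 3, -NaCl 2 or -NaCl 3 (up to 0.149). The calls of Nr4a1 and Thrb in NFAT5KO cells were also lost in edgeR and with a pseudocount of 5. In control cells the call of Nr4a1 was lost without any one library other than -NaCl replicate 3 (up to 0.0977), and that of Ppard without replicate 1 or 2 of either medium (up to 0.101).

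Few vitamin D carriers, hydroxylases and their electron donors were measured. Of 10 genes, 4 were tested in NFAT5KO cells, of which 1 fell (list median -0.30), and 7 in control cells, of which 0 passed in limma and edgeR and 1 in DESeq2 (median -0.34), with 1 at an unadjusted p below 0.05 in each. Fdx1, the ferredoxin that carries electrons to mitochondrial P450 enzymes such as Cyp24a1 and Cyp27b1, fell by 0.55 in NFAT5KO cells (adjusted p = 0.0150, and 0.0635 without -NaCl replicate 2). It was at -0.34 in control cells (adjusted p = 0.0528).

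Of 18 genes known to be raised by calcitriol, 10 were tested in NFAT5KO cells, where 1 rose and 2 fell (median -0.07), and 11 in control cells, where 5 rose and 1 fell (median 0.20). Spp1, which encodes the matrix protein osteopontin, had 11506, 15816 and 14628 normalized counts in NFAT5KO +NaCl and 14108, 13936 and 17798 in NFAT5KO -NaCl. It had 13072, 14104 and 14525 in control +NaCl against 8947, 8585 and 9875 in control -NaCl. Only control cells separated by medium, with log2 fold changes of -0.13 in NFAT5KO cells (adjusted p = 0.502) and 0.61 in control cells (adjusted p = 2.24e-05). The difference was -0.74 (SE 0.15, adjusted p = 0.0175), and it failed on omission of +NaCl 2, +NaCl 3 or -NaCl 2 of control cells (adjusted p up to 0.0571).

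Lrp5 had 2124, 2051 and 2179 normalized counts in NFAT5KO +NaCl and 2114, 2092 and 2229 in NFAT5KO -NaCl, and 2176, 2109 and 2163 in control +NaCl against 1748, 1823 and 1713 in control -NaCl. Again the media were apart in control cells and overlapped in NFAT5KO cells. The log2 fold changes were -0.02 and 0.29, and the difference was -0.31 (SE 0.06, adjusted p = 0.0241). It failed on omission of NFAT5KO +NaCl 1, NFAT5KO -NaCl 3, control +NaCl 1, control +NaCl 3 or control -NaCl 1 (adjusted p up to 0.0696).

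Mgp, matrix Gla protein, an inhibitor of calcification, passed the test in NFAT5KO cells and not in control cells. It had 76.5, 84.6 and 72.0 normalized counts in NFAT5KO +NaCl and 113, 193 and 178 in NFAT5KO -NaCl, and 86.1, 114 and 87.4 in control +NaCl against 81.0, 73.5 and 94.9 in control -NaCl. In NFAT5KO cells all +NaCl libraries lay below all -NaCl libraries, and in control cells the media overlapped. It fell by 1.01 in NFAT5KO cells (adjusted p = 0.00717) and was at 0.20 in control cells (adjusted p = 0.470). The difference of -1.21 (SE 0.28, adjusted p = 0.0362) was lost without any one of 10 of the 12 libraries, the exceptions being NFAT5KO -NaCl replicate 1 and control -NaCl replicate 3 (adjusted p up to 0.105).

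The calcium pump gene Atp2b1 rose by 0.31 in NFAT5KO and 0.29 in control cells (adjusted p = 0.00643 and 0.00377). Cbs, an enzyme of sulfur amino acid metabolism, fell by 1.48 in NFAT5KO cells (adjusted p = 0.0464) and by 1.45 in control cells (adjusted p = 0.00909). In NFAT5KO cells the call of Cbs failed on omission of +NaCl 1, +NaCl 3, -NaCl 2 or -NaCl 3 (adjusted p up to 0.176), and it also failed with no filter on low values.

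Of 8 genes known to be lowered by calcitriol, 6 were tested in each genotype. In NFAT5KO cells 2 rose and 0 fell (median 0.28), and in control cells 5 rose and 0 fell (median 0.68). Ibsp, bone sialoprotein, rose by 1.17 in NFAT5KO and 1.43 in control cells (adjusted p = 6.52e-04 and 9.07e-09). Col1a1, the alpha 1 chain of type I collagen, rose by 0.52 in control cells and was at 0.25 in NFAT5KO cells (adjusted p = 0.0592). Phex, a peptidase of bone cells, rose by 0.93 in control cells and was at 0.59 in NFAT5KO cells (adjusted p = 0.0888). The differences between the genotypes did not pass for these 3 genes (adjusted p = 0.550, 0.211 and 0.599).

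Runx2, the transcription factor that directs osteoblast differentiation, had 6319, 6440 and 6402 normalized counts in NFAT5KO +NaCl and 5609, 4915 and 5077 in NFAT5KO -NaCl. It had 6499, 6297 and 6391 in control +NaCl against 4314, 4201 and 3883 in control -NaCl, and the media were apart in both genotypes. It rose by 0.30 in NFAT5KO cells (adjusted p = 0.00619) and by 0.63 in control cells (adjusted p = 3.11e-06). The difference of -0.33 (SE 0.07, adjusted p = 0.0310) was lost without any one of 8 of the 12 libraries (adjusted p up to 0.0794), the exceptions being NFAT5KO +NaCl replicate 2, NFAT5KO -NaCl replicates 2 and 3 and control -NaCl replicate 1.

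**Figure D4:**
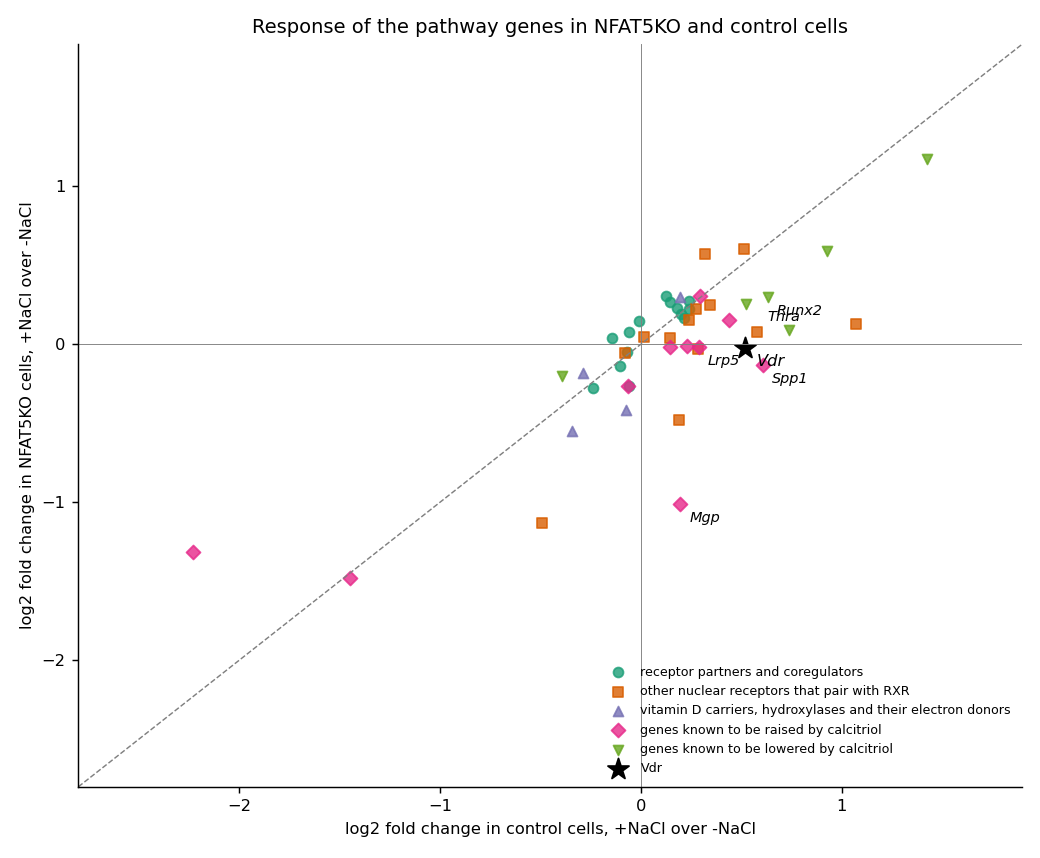
Log2 fold change of +NaCl over -NaCl in NFAT5KO cells (y axis) against that in control cells (x axis) for 47 genes of the 5 lists tested in both genotypes, by list, with Vdr as a star and a dashed line of equal change. Vdr lies at -0.02 and 0.52, and the named genes Thra, Spp1, Lrp5, Mgp and Runx2, whose responses differed, lie below the line.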

How the data were processed

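RNA of UMR-106 cells was measured in 12 poly-A libraries (NEBNext Ultra, NovaSeq, paired ends). The signal deposited for each gene is a normalized read count, for which the authors divided the reads of a library by 1 factor, in each of 2 tables, 1 per genotype. The other deposited column used is the gene length in bases. The genotype was taken from the column labels, since the names of the tables conflict with them, and 24 columns without a sample name were not used. Deposited fold changes and p-values of the authors' own comparisons were not used. The aligner, the counting tool and the strandedness are not given in the sources used here. The study's methods call the 3 libraries of each group biological replicates.

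Each value divided by the smallest step of its library gave a whole read within 0.1 for 100% of values. Genes whose normalized counts averaged 1 or more were fitted on log2(normalized count + 1) with limma 3.58.1 (R 4.3.3) and a mean-variance trend, table by table, and the difference of the responses in 1 model of the 12 libraries on genes of both tables. P-values were adjusted (Benjamini-Hochberg) over all genes tested, with a threshold of 0.05. This scale understates the change of low genes. Read ratios have exact 95% intervals for counting error only. An exact permutation test of 3 against 3 libraries cannot go below 0.10 (two-sided) and was not used.

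Members and lists were chosen with earlier results of these data known. Named genes are the 8 members, up to 4 genes with the smallest p per list and genotype among those called, list genes whose difference was called, the 3 most like Vdr and Cyp24a1 (mean of at least 50 in both tables), and Nfat5. Some cell type markers are named as well. Alternatives were pseudocounts of 0.5 and 5, filters at a mean of 10 or at none, library totals made equal, TMM, edgeR 4.0.16 and DESeq2 1.42.0 on recovered reads, no trend, the replicate number as a block, and leaving out each library. The values of 1 gene that the rule names are not reported here. Scripts were tested on simulated data.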

Additional observations from a re-analysis of the deposited data

Results flagged for a closer look

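The responses to salt of 6 genes differed between NFAT5KO and control cells by the test of the difference itself (NFAT5KO minus control, log2 scale). The difference was -0.54 for Vdr, -0.50 for Thra, -0.74 for Spp1, -0.31 for Lrp5, -1.21 for Mgp and -0.33 for Runx2. Vdr and Thra kept the call without each library in turn, and none of the 6 kept it without a mean-variance trend. In that fit 103 of 16849 genes were called, against 304 with the trend. Outside the members and lists, the osteoblast marker Alpl also passed with the trend, at -0.56 (limma adjusted p = 0.00138).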

How the results depend on the processing

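Across pseudocounts, filters, scalings, edgeR, DESeq2, the replicate block and no trend, 216 values of the members' fold changes kept direction and side of the threshold, 1 was weaker and 4 reversed. The weaker one was Vdr for the difference without a trend, where the number of members called was 0. The reversed ones were differences near 0, Cyp24a1 at 0.080 with a pseudocount of 5 and Trpv6 at 0.058 with a pseudocount of 5, 0.17 in edgeR and 0.17 in DESeq2. The cause was not tested. Of the NFAT5KO to control level ratios recomputed on deposited counts or with TMM, 25 stayed within 1 SD of the ratio in RPM and 3 did not.

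Leaving out 1 library at a time, the number of members called was 1 to 2 in control cells. Vdr lay between 0.48 and 0.56 in control cells and between -0.60 and -0.48 for the difference. Fold changes that crossed 0 ranged from -0.086 to 0.034 for Vdr and from -0.061 to 0.24 for Bglap in NFAT5KO cells, and from -0.69 to 0.13 for Bglap and from -0.24 to 0.79 for Trpv6 in control cells. For the difference they ranged from -0.50 to 0.34 for Cyp24a1, from -0.047 to 0.77 for Bglap, from -0.45 to 0.57 for Trpv6 and from -0.27 to 0.92 for S100g. Cyp24a1, Bglap, Trpv6 and S100g had at most 21 reads a library. In the lists, under alternatives other than leaving out a library, 314 values of the named genes kept their call and 36 lost it, most without a trend, and Pdia3 in control cells also in DESeq2.

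Libraries with the same replicate number did not deviate together (r from -0.098 to 0.145), so the numbers were not taken as a pairing. With the number as a block, Vdr was at 0.52 in control cells (adjusted p = 4.81e-05) and -0.54 for the difference (adjusted p = 0.00222), and no member's call changed. In the lists, the block ended the calls of Nr1h2, Nr4a1 and Thrb in NFAT5KO cells and of Mgp for the difference.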
